A study of Homo sapiens with 6 samples.

Results

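Nuclear genes for chaperones and proteases of mitochondria were followed in RKO cells treated with EZA. The 10 genes are HSPD1, HSPE1, HSPA9, TRAP1, DNAJA3, LONP1, CLPP, CLPX, YME1L1 and AFG3L2. They were taken by symbol, each matched through GENCODE 44 to its Ensembl identifier. All 10 had a row among the 58735 of the count table, and all 10 were among the 13503 genes with enough counts to be tested. RKO is an established human line from a colorectal carcinoma. One group received DMSO, the solvent, and the other EZA, a name the labels do not spell out. Each held 3 replicates, which the study describes as biological. Neither a dose nor an exposure time is stated in the labels, and no genetic change is named for either group.

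Most mitochondrial proteins are made in the cytosol and enter the organelle unfolded. In the matrix, HSPA9 (mortalin) pulls them in and holds them, and DNAJA3 is a J-protein partner of HSPA9. The HSPD1 barrel with its HSPE1 lid gives proteins a closed space in which to fold. TRAP1 is the HSP90-type chaperone of the matrix. Proteins that fail are cut by ATP-driven proteases, which are LONP1 and the CLPX–CLPP complex in the matrix and YME1L1 and AFG3L2 in the inner membrane. In mammalian cells, shortage of matrix folding capacity is known to raise the transcripts of several of these genes.

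The libraries held 14070611 to 18840954 counts. EZA replicate 3 differed from the rest, with 0.203% of its counts in mitochondrially encoded genes, against 3.68% to 5.02% in the remaining libraries. The epithelial and intestinal markers were partly present. EPCAM, KRT8, KRT18 and CDX2 were present in every library (at least 104, 251, 1726 and 161 counts). CDH1, KRT19, CDX1, VIL1, KRT20 and LGR5 had at most 1 count in any library. Of 9 fibroblast, leukocyte and endothelial markers, 7 had at most 10 counts over the 6 libraries, and PTPRC, CD3E, PECAM1 and COL1A2 had none. The exceptions were COL1A1 and CD68. COL1A1 had 0 to 5 counts per library. CD68 had 18, 25 and 12 counts in the DMSO libraries and 36, 27 and 0 in the EZA libraries, in replicate order. In such bulk samples, fewer cells with a transcript and less of it per cell cannot be told apart.

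HSPD1 and HSPE1 lie on opposite strands of chromosome 2, and from one pair of their RefSeq starts they are transcribed away from each other. In GENCODE 44, whose gene bounds take in all annotated transcripts, HSPE1 and the stretch between these starts lie inside the bounds of HSPD1. The 104 bases between the starts are shown because this one stretch is upstream of both partners of the chaperonin, whose transcripts are compared further on. They lie at chr2:197500275-197500378 (GRCh38.p14) and are printed on the strand of HSPE1. Capitals mark a match to GCGCANGC, the core of sites bound by NRF1, a regulator of nuclear genes for mitochondria.
HSPD1-HSPE1: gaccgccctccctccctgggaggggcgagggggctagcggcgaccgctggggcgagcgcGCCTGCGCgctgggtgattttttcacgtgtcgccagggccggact

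LONP1, the member that rose, has 2 RefSeq starts on chromosome 19. The next stretches are printed on its strand, with capitals for the same motif. The first is chr19:5720147-5720218, just upstream of the start closer to the gene body. The second is chr19:5720573-5720636, which separates the outermost exon of LONP1 from CATSPERD, a gene on the other strand with 4 counts in the 6 libraries together.
LONP1 near start: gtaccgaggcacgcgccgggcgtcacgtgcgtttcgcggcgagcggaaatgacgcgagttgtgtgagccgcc
LONP1-CATSPERD: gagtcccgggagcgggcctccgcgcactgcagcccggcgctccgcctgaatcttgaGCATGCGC

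RefSeq held 10 promoter windows for 8 of the members, and the 250 bases before each start were searched on both strands for 5 motifs. GCGCANGC was found in 5 of the 10 windows, those of CLPX, DNAJA3, HSPE1 and 1 of each pair for HSPD1 and LONP1, and in 10.4% of all 35116 promoters. The matches of HSPD1 and HSPE1 are the same site, the one in capitals in the stretch they share. The window of DNAJA3 and the distal one of LONP1 held 4 matches each, in part overlapping. CCAAT was in 2 windows (CLPX and DNAJA3; 32.0% of all promoters), GAANNTTC, the core of a heat shock element, in 1 (HSPD1; 5.78%), and TGACGTCA, the cyclic AMP response element, in 1 (TRAP1; 1.65%). TGATGNAA, the core of the composite site of CHOP and ATF factors, was in 0 of the 10 windows and 3.14% of all promoters. These are matches of letters only.

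Among the 10 transcripts, LONP1 rose and HSPE1 fell in EZA-treated cells (edgeR quasi-likelihood test, adjusted p below 0.05 over all genes tested). LONP1 was 2.00-fold higher and HSPE1 was 1.90-fold lower. The other 8 did not pass. Of all genes tested 17.7% passed, 9.89% higher and 7.82% lower, so 2 of 10 is near the background share. When libraries were scaled by their size alone, 1059 genes were higher and 1270 lower in place of 1336 and 1056, and the members called were LONP1 and HSPE1 there too. The groups did not overlap in 4 members, LONP1, HSPE1, DNAJA3 and YME1L1, and in 42.7% of all genes. The median log2 fold change was 0.07 over the members and -0.01 over all genes. By the cut-off the study states (at least 2-fold, unadjusted p under 0.05), 0 of the 10 members and 5.73% of all genes counted as changed with edgeR. LONP1 sat at its edge, with a log2 fold change of 1.00 that was below 1 before rounding. With DESeq2, which the submitters list, LONP1 was at 1.01 and passed, as 1 of 10 members and 3.43% of 27289 genes did. Unadjusted p was below 0.05 in 3 members, LONP1, HSPE1 and DNAJA3, and in 34.6% of all genes.

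**Figure D1:**
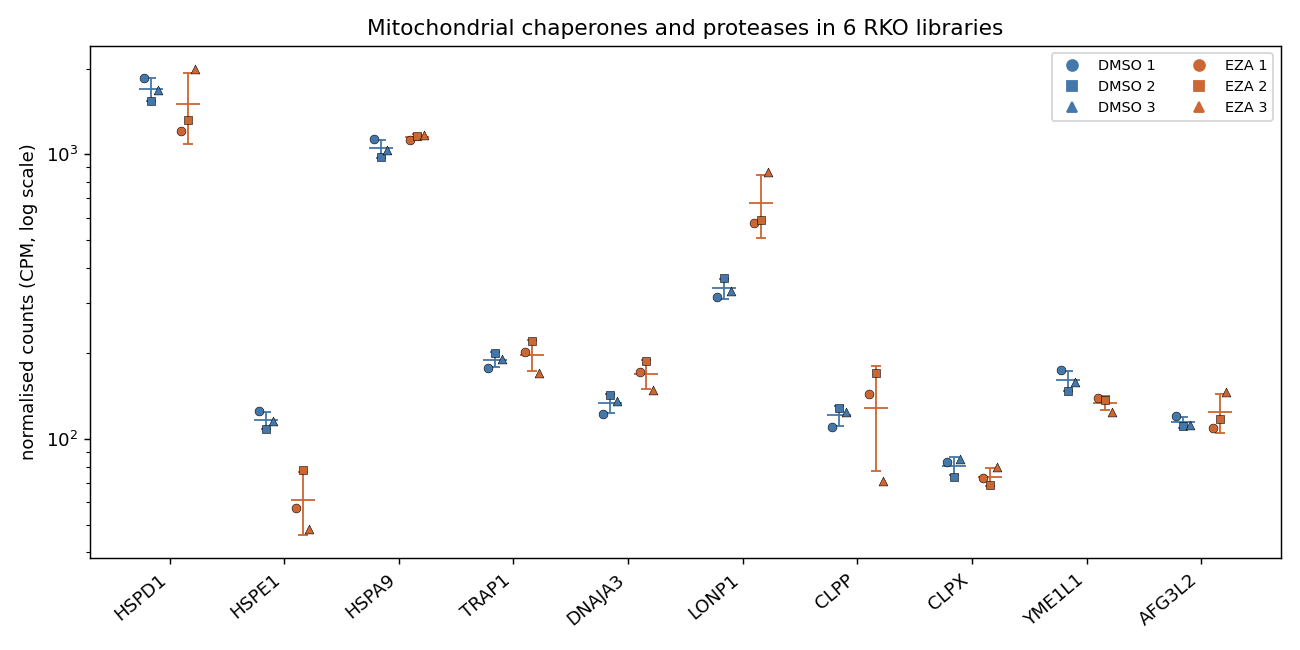
Normalised counts (CPM, logarithmic vertical axis) of the 10 genes in the 6 libraries, with a point per replicate (circle, square and triangle for replicates 1, 2 and 3), the mean of each group as a bar and 1 SD as whiskers (n = 3 per group). LONP1 lies between 315 and 369 CPM in DMSO and between 574 and 869.7 CPM in EZA, and HSPE1 between 109 and 125 CPM in DMSO and between 48.5 and 78.1 CPM in EZA.

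By FPKM, and by TPM over the longest annotated transcript, HSPD1 was the most abundant member in both groups. On the authors' FPKM scale it stood at 391 ± 34.6 in DMSO (SD, n = 3), above 99.5% of genes tested. HSPA9 followed at 125 ± 9.03 FPKM. The order below HSPD1 depended on the gene lengths used. By TPM in DMSO, HSPE1 (mean 440) came before HSPA9 (mean 372), so the order given here holds for FPKM. LONP1, HSPE1 and CLPP, at 65.3 ± 5.59, 57.8 ± 3.98 and 52.2 ± 4.31 FPKM, formed a middle group in which neighbours overlapped. TRAP1 was next, at 35.7 ± 2.23 FPKM. The ranges of YME1L1, DNAJA3 and AFG3L2 overlapped from one to the next, with means of 21.5, 18.6 and 16.9 FPKM. CLPX was lowest at 14.5 ± 0.992 FPKM, and even this level exceeded that of 76.2% of genes tested.

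In EZA-treated cells FPKM ranks 1 to 3 and 10 were held by the same members as in DMSO, and the ranks between differed. HSPE1 moved from rank 4 to rank 6, at 30.7 ± 8.02 FPKM (SD, n = 3). With TPM over the longest annotated transcript, the ranks of HSPE1 were 2 and 4, and those of LONP1 were 4 and 2. LONP1 kept rank 3 but at 132 ± 31.4 FPKM, where its range overlapped that of HSPA9 (138 ± 3.69 FPKM). The summed FPKM of the 5 proteases was 164, 177 and 169.9 in the DMSO libraries, against 222, 240.4 and 251 in the EZA libraries, each in replicate order. Without LONP1 the sums were 103, 105 and 106 FPKM in DMSO and 110.4, 124 and 83.4 FPKM in EZA, so that the groups overlapped. HSPD1 made up 46.9% to 51.0% of the summed FPKM of all 10 members in DMSO, and 38.7%, 38.9% and 49.6% in EZA replicates 1, 2 and 3. LONP1 made up 7.24% to 9.36% in DMSO and 14.5% to 18.1% in EZA, without overlap. The 5 chaperones summed to 675, 588 and 622 FPKM in DMSO and 506, 560.4 and 676 FPKM in EZA. These sums and shares depend on the gene lengths behind the FPKM, and they were not computed with TPM.

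HSPE1, the lid of the chaperonin (ENSG00000115541, chromosome 2, 197500140 to 197503449), was at 125, 109 and 116 CPM in the DMSO libraries, in replicate order. In the EZA libraries it was at 57.1, 78.1 and 48.5 CPM. Every EZA library lay below every DMSO library, and replicate 3 was the lowest. The log2 fold change was -0.93 ± 0.18 (SE), with an edgeR adjusted p of 0.0135. Its adjusted p was 0.0853, 0.0509 and 0.0669 without DMSO replicate 1, 2 or 3, and it ran from 5.40e-07 to 0.0853 over all alternatives. Without those DMSO libraries in turn, 220, 787 and 254 of all genes were called, against 2392 with all libraries.

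HSPD1, the barrel-forming subunit (ENSG00000144381, chromosome 2, 197486584 to 197516737), was at 1851, 1544 and 1689 CPM in DMSO. It was at 1212, 1317 and 1992 CPM in EZA. EZA replicates 1 and 2 lay below all DMSO libraries and replicate 3 above all of them. The log2 fold change over the 3 replicates was -0.17 ± 0.21 (SE; edgeR adjusted p = 0.594). Without EZA replicate 3 it was -0.42 ± 0.11, with an adjusted p of 0.00150. With the trend of GC content and length removed as well it was -0.11 (adjusted p = 0.206), in a range over all alternatives of 0.00150 to 0.930.

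The ratio of HSPE1 to HSPD1 within a library does not depend on how libraries are scaled. In FPKM it was 0.145, 0.151 and 0.147 in DMSO. In EZA it was 0.101, 0.127 and 0.0523. The EZA libraries were all below the DMSO libraries, with a wider spread among them. The difference in mean log2 ratio was -0.75 (SD 0.030 in DMSO and 0.667 in EZA; exact two-sided permutation test, p = 0.1, the smallest this design allows, and 0.2 adjusted over 6 ratios). Without EZA replicate 3 the difference was -0.38. The level of the ratio depends on the gene lengths used, and the difference between groups does not. In DMSO the means of HSPE1 and HSPD1 were 57.8 and 391 FPKM. As TPM over the longest annotated transcript they were 440 and 909.

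The counts of this pair carry some uncertainty. Annotated exons of HSPD1 and HSPE1 share 135 bases on opposite strands, and the libraries do not mark strand. HSPE1 also shares 192 exon bases with the readthrough gene HSPE1-MOB4, which had 9 counts against 8511 for HSPE1. Of 18 HSPD1 pseudogene rows 6 held counts, together 1.29% of the count of HSPD1, with 241 to 302 in 5 libraries and 595 in EZA replicate 3. Of 26 HSPE1 pseudogene rows 12 held counts, together 3.04% of the count of HSPE1. MOB4, the next gene beyond HSPE1, had a log2 fold change of -0.59 ± 0.23 (SE, with an edgeR adjusted p of 0.0989).

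**Figure D2:**
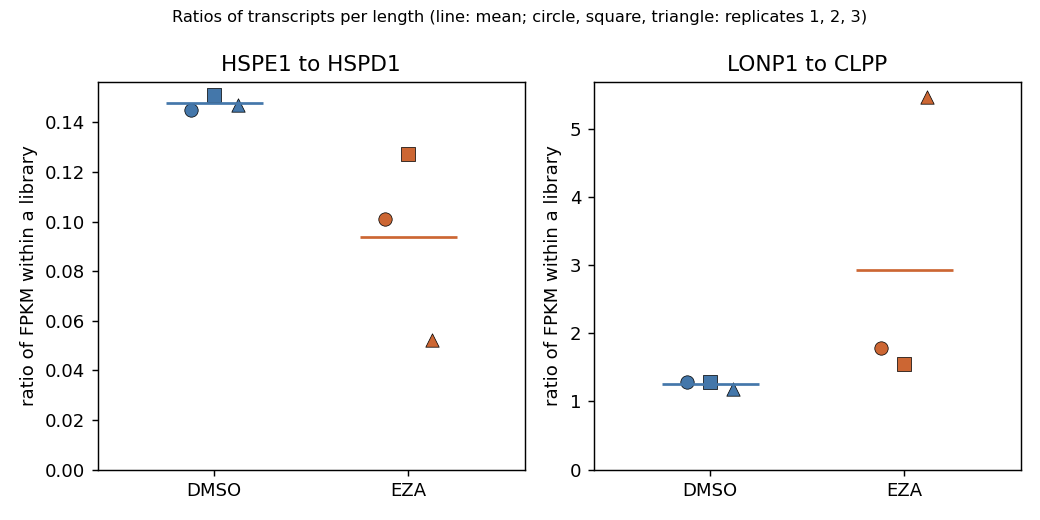
Ratio of FPKM values within each library for HSPE1 to HSPD1 (left) and LONP1 to CLPP (right), with a point per replicate (circle, square and triangle for replicates 1, 2 and 3) and a line at the group mean. The HSPE1 to HSPD1 ratio is 0.145 to 0.151 in DMSO and 0.0523 to 0.127 in EZA, and the LONP1 to CLPP ratio is 1.19 to 1.29 in DMSO and 1.54 to 5.47 in EZA, where the highest point is replicate 3.

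HSPA9, the matrix HSP70 and import motor (chromosome 5, 138553756 to 138575675), was at 1134, 980.2 and 1036 CPM under DMSO. Under EZA it was at 1120.3, 1157 and 1174 CPM. The groups overlapped, and the log2 fold change was 0.13 ± 0.13 (SE; edgeR adjusted p = 0.518). DNAJA3, a J-protein partner of HSPA9 (chromosome 16, 4425805 to 4456775), was at 123, 143 and 137 CPM in DMSO. In EZA it was at 172, 187 and 148 CPM. All EZA values were above all DMSO values, with a log2 fold change of 0.34 ± 0.13 that missed the threshold (adjusted p = 0.108). DNAJA3 rose by 0.43 ± 0.11 once EZA replicate 3 was left out (adjusted p = 0.00148, within a range of 6.11e-04 to 0.328 over the alternatives).

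TRAP1, the matrix HSP90 (chromosome 16, 3651639 to 3717553), was at 178, 201 and 191 CPM in DMSO. In EZA it was at 203, 220.4 and 171 CPM, so that the EZA values lay on both sides of the DMSO values. Its log2 fold change was 0.06 ± 0.13 (SE; edgeR adjusted p = 0.792). TRAP1 shares 1477 exon bases with DNASE1 on the other strand, a gene with 979 counts against 18589 for TRAP1.

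LONP1, the matrix protease that degrades oxidised and misfolded proteins (ENSG00000196365, chromosome 19, 5691834 to 5720572), was at 315, 369 and 331 CPM in DMSO. It was at 574, 588 and 869.7 CPM in EZA. The groups did not overlap, and replicate 3 was the highest EZA library. The log2 fold change was 1.00 ± 0.18 (SE; edgeR adjusted p = 0.0115). Without EZA replicate 3 it was 0.78 ± 0.10. The adjusted p was 0.0830 without DMSO replicate 1 and 0.0701 without DMSO replicate 3, and ran from 1.35e-07 to 0.0903 over all alternatives. LONP1 shares 42 exon bases at its 3′ end with RPL36 on the other strand, whose log2 fold change was 0.28 ± 0.16 (adjusted p = 0.257).

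CLPP and CLPX form the other soluble protease of the matrix, CLPP as the cutting chamber and CLPX as the unfoldase that feeds it. CLPP (chromosome 19, 6361531 to 6370242) was at 110.0, 129 and 125 CPM in DMSO and at 144, 171 and 71.3 CPM in EZA. Replicates 1 and 2 were above all DMSO libraries and replicate 3 below all of them, which left a log2 fold change of 0.09 ± 0.27 (SE, with an edgeR adjusted p of 0.851). CLPP rose by 0.38 ± 0.11 when EZA replicate 3 was left out (adjusted p = 0.00546, range 0.00546 to 0.9995 over the alternatives). Removal of the GC and length trend from those 5 libraries left it at 0.16 and not called (adjusted p = 0.0817). CLPX (chromosome 15, 65148219 to 65185342) was at 82.8, 73.9 and 85.1 CPM in DMSO and at 72.7, 69.0 and 79.8 CPM in EZA, overlapping groups with a log2 fold change of -0.13 ± 0.12 (adjusted p = 0.504).

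The ratio of LONP1 to CLPP in FPKM was 1.28, 1.29 and 1.19 in DMSO and 1.78, 1.54 and 5.47 in EZA. The EZA values were all above the DMSO values, with a difference in mean log2 ratio of 0.98 (exact two-sided permutation test, p = 0.1, and 0.2 adjusted over 6 ratios). It was 0.41 without EZA replicate 3. The ratio of CLPX to CLPP was 0.314, 0.240 and 0.284 in DMSO and 0.2103, 0.169 and 0.467 in EZA, where replicate 3 lay apart from replicates 1 and 2. Its difference in mean log2 ratio was -0.12 (exact p = 0.9, adjusted 0.9).

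Neither AAA protease of the inner membrane passed the test. YME1L1, whose active site faces the intermembrane space (chromosome 10, 27110111 to 27155266), was at 175, 148 and 159 CPM in DMSO and at 139, 137 and 125 CPM in EZA. The EZA values were all lower, with a log2 fold change of -0.26 ± 0.12 (SE, with an edgeR adjusted p of 0.157). YME1L1 shares 443 exon bases with MASTL on the other strand, a gene that fell by 0.56 ± 0.16 on the log2 scale (adjusted p = 0.0414) and held 2553 counts against 14045. AFG3L2, whose active site faces the matrix (chromosome 18, 12328944 to 12377227), was at 120.4, 111 and 112 CPM in DMSO and at 109, 118 and 146 CPM in EZA. Its groups overlapped, with a log2 fold change of 0.12 ± 0.14 (adjusted p = 0.574).

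AFG3L2 forms rings with SPG7, also called paraplegin, which had 88.8 ± 9.73 CPM under DMSO and 111 ± 31.0 CPM under EZA (SD, n = 3 each; edgeR adjusted p = 0.275). The difference in the mean log2 ratio of AFG3L2 to SPG7 was -0.18 (exact two-sided permutation test, p = 0.3, adjusted 0.45). GRPEL1, the nucleotide exchange factor of HSPA9, was at 117 ± 6.99 and 112 ± 10.9 CPM (adjusted p = 0.782). In FPKM, the ratio of GRPEL1 to HSPA9 was 0.218, 0.227 and 0.216 in DMSO and 0.184, 0.213 and 0.181 in EZA. The EZA ratios were all lower, by a mean of 0.19 on the log2 scale (exact p = 0.1, adjusted 0.2). For TRAP1 to HSPD1 the groups overlapped (exact p = 0.6, adjusted 0.72).

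**Figure D3:**
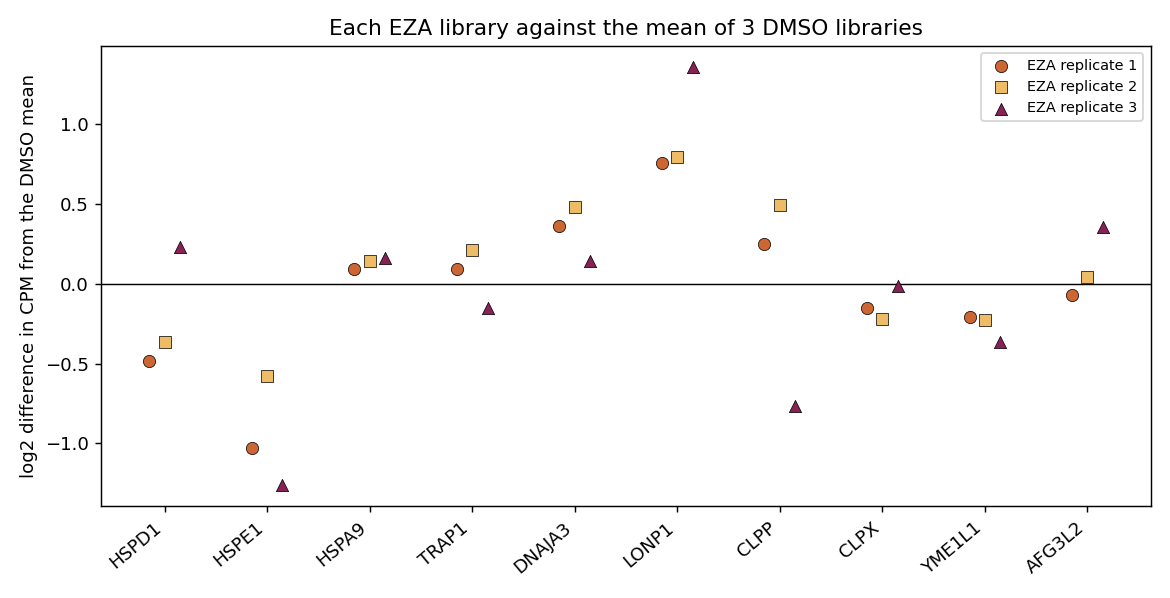
Log2 difference of each EZA library (circle, square and triangle for replicates 1, 2 and 3) from the mean CPM of the 3 DMSO libraries, for the 10 genes. HSPD1 (-0.48, -0.36 and 0.23) and CLPP (0.25, 0.49 and -0.77) change sign in replicate 3, while HSPE1 is below 0 and LONP1 above 0 in all 3 libraries.

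The 3 EZA libraries thus differed most in CLPP, HSPD1, LONP1 and HSPE1. In EZA replicate 3 relative to the mean of replicates 1 and 2, CLPP was at -1.14, HSPE1 at -0.48, LONP1 at 0.58 and HSPD1 at 0.66 on the log2 scale. Among 7612 genes with at least 20 CPM on average, the 5th and 95th percentiles of this difference were -1.01 and 0.75. CLPP was therefore outside the central range of these genes, and HSPD1 and LONP1 were within it at the 92.3rd and 89.6th percentile. With that library left out, 5 members were called, LONP1, DNAJA3 and CLPP higher and HSPE1 and HSPD1 lower, where 38.4% of all genes were called. When the GC and length trend was removed as well, 4 members and 38.6% of all genes were called. HSPD1 and CLPP were then not called, HSPE1, DNAJA3 and LONP1 were, and HSPA9 was added at 0.37 on the log2 scale (adjusted p = 2.05e-04, range 2.05e-04 to 0.743 over the alternatives).

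The members also differ in base composition. HSPE1 and HSPD1 have the lowest GC content in their longest annotated transcript (36.9% and 38.6%) and LONP1 the highest (62.6%). Protein-coding genes of at most 40% GC had a median log2 fold change of -0.30, and those above 60% one of 0.44. With the trend of GC content and length removed from each library, LONP1 was at 0.57 ± 0.14 and HSPE1 at -0.60 ± 0.13 on the log2 scale (SE; edgeR adjusted p = 0.0426 and 0.0303). HSPD1 then stood at 0.13 and YME1L1 at -0.01, and HSPA9 at 0.36 with an adjusted p of 0.0682. The part of base composition in the differences was not tested.

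**Figure D4:**
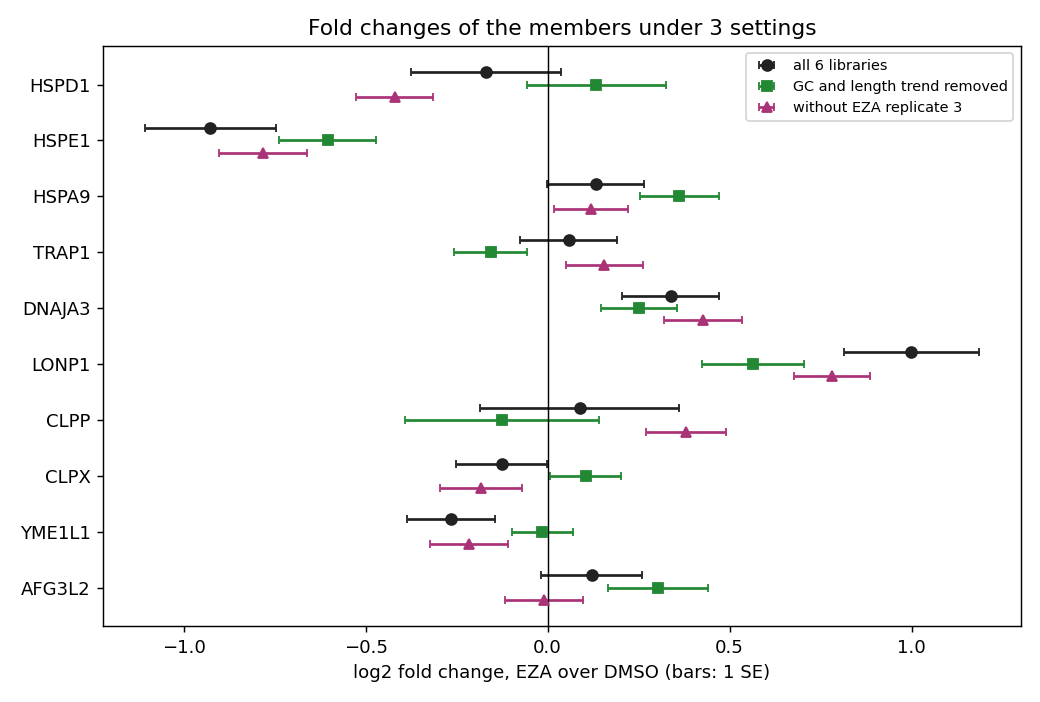
Log2 fold change, EZA over DMSO, of the 10 genes with all 6 libraries (circles), after removal of the GC and length trend (squares) and without EZA replicate 3 (triangles). Bars are 1 SE. LONP1 (1.00, 0.57 and 0.78) and HSPE1 (-0.93, -0.60 and -0.78) keep their sign in all 3, and HSPD1 lies at -0.17, 0.13 and -0.42.

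Around these members, 42 further genes of mitochondrial folding, import, proteolysis and stress signalling were followed in 5 lists, of which 40 were tested. Of these, 7 rose and 1 fell (20%, against 17.7% of all genes), and their median log2 fold change was 0.09. Among 6 tested matrix co-chaperones 1 rose, GRPEL2, the second exchange factor of HSPA9. It went from 38.2 ± 4.09 CPM in DMSO to 60.4 ± 7.67 CPM in EZA (SD, n = 3 each), higher by 0.66 ± 0.15 on the log2 scale (SE; adjusted p = 0.0205 by edgeR). It lost its call without any 1 of the DMSO replicates (adjusted p up to 0.103). DNAJC15 had no count in any library.

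Of 13 other proteases and peptidases 2 rose. IMMP2L, a subunit of the inner membrane peptidase, had 5.63, 4.66 and 4.15 CPM under DMSO and 7.36, 7.73 and 15.8 CPM in EZA. Its log2 fold change was 1.09 ± 0.31 (SE; edgeR adjusted p = 0.0434), and 0.65 without EZA replicate 3. Its call was lost in 7 of 15 alternatives, among them scaling by library size alone and leaving out any 1 of the DMSO replicates (adjusted p up to 0.160). HTRA2, a serine protease of the intermembrane space, rose from 29.5 ± 1.09 to 40.5 ± 4.05 CPM (SD, n = 3 each; edgeR adjusted p = 0.0453), and kept its call in 5 of 15 alternatives (adjusted p up to 0.204). OMA1, the stress-activated protease of the inner membrane, had a log2 fold change of -0.03 ± 0.18. Of the 5 scaffold genes 0 were called by edgeR, 1, STOML2, had an unadjusted p below 0.05, and DESeq2 and limma-voom called 1 and 0.

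In the import channel and its motor, 2 of 10 genes rose and 1 fell. TIMM44, which tethers HSPA9 to the channel, was at 33.8, 48.9 and 41.2 CPM in DMSO and at 67.0, 81.3 and 97.0 CPM in EZA. Its log2 fold change was 0.98 ± 0.18 (SE; edgeR adjusted p = 0.0121). TIMM17B, a channel subunit, rose by 0.71 ± 0.18 (adjusted p = 0.0288), while its paralogue TIMM17A had -0.30 ± 0.12 (adjusted p = 0.119). TIMM21, which links the channel to the outer membrane translocase, fell from 36.9 ± 4.29 to 23.1 ± 1.01 CPM (SD, n = 3 each; adjusted p = 0.0157). The calls of TIMM44 and TIMM21 were lost without DMSO replicate 1 or 3 and that of TIMM17B without any 1 of the DMSO replicates or without EZA replicate 1 or 2, with an adjusted p of up to 0.0798, 0.0907 and 0.141. After removal of the GC and length trend TIMM44 was at 0.64, and TIMM17B was at 0.48 and no longer called. TIMM17A was then at -0.11 (edgeR adjusted p = 0.445).

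Of 6 regulators tied to the mitochondrial stress response, 2 rose. ATF4 was at 261, 276 and 258 CPM under DMSO and 856, 1014 and 1135 CPM in EZA. DDIT3, which encodes CHOP, rose from 10.4 ± 1.07 to 36.5 ± 9.42 CPM (SD, n = 3 each). Their log2 fold changes were 1.92 ± 0.15 and 1.81 ± 0.21 (SE; edgeR adjusted p = 3.39e-04 and 0.00228), and both were called in all 15 alternatives. ATF5, a bZIP factor that enters mitochondria, was at 47.5 ± 2.50 and 54.3 ± 5.20 CPM (adjusted p = 0.322). HSF1, the heat shock factor, had a log2 fold change of 0.18 ± 0.12, which turned to -0.29 once the trend was removed. DELE1 and EIF2AK1, the relay from mitochondria to the kinase HRI and that kinase itself, had log2 fold changes of 0.18 ± 0.14 and -0.29 ± 0.18 (adjusted p = 0.377 and 0.291).

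**Figure D5:**
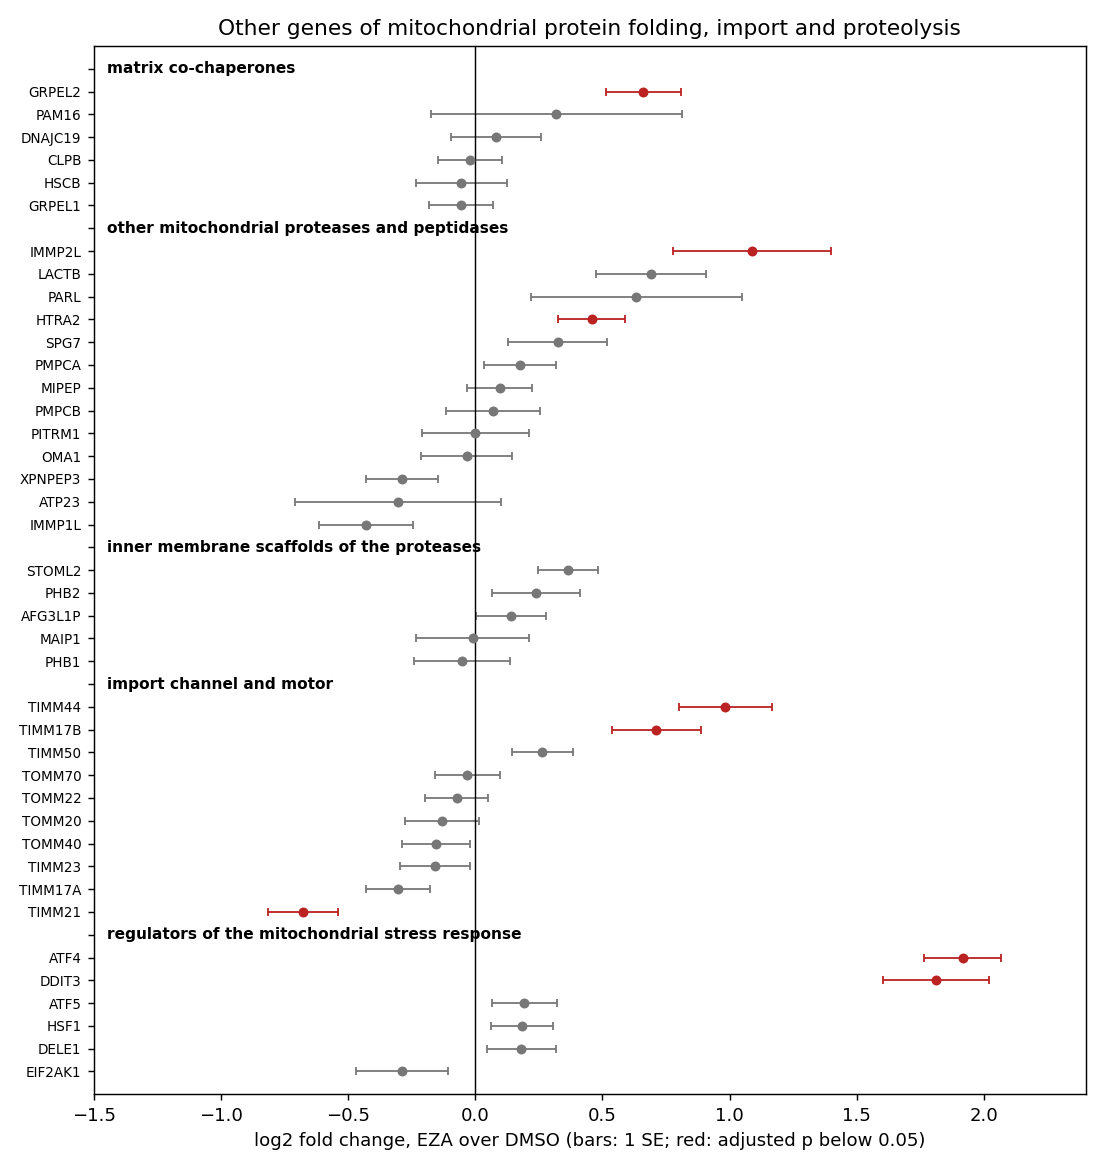
Log2 fold change, EZA over DMSO, of the 40 tested genes of the 5 lists, grouped by list, with bars of 1 SE and genes with an adjusted p below 0.05 in red. ATF4 (1.92) and DDIT3 (1.81) lie furthest to the right, TIMM44 (0.98) leads the import genes and TIMM21 (-0.68) is the one red point left of 0.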

How the data were processed

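Oligo(dT) beads selected the RNA of RKO cells, and the libraries are not stranded, per the labels. FastQC, HISAT2, featureCounts, DESeq2 and GRCh38 (hg38) are listed in the submitters' processing notes, with no versions or options. The authors deposited 1 table with whole-number counts and FPKM values for each Ensembl gene. FPKM served to compare genes, and the table does not give the gene lengths behind it. Value columns left unassigned numbered 0.

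Groups and replicate numbers came from sample titles. Counts were filtered with filterByExpr, scaled by TMM and tested with edgeR's robust quasi-likelihood test (two-sided, no covariates, Benjamini-Hochberg over 13503 genes). SE were derived from the F statistic. CPM used the TMM scaling. Ratios of partner genes were tested by exact permutation over 20 splits. Positions, GC content and longest transcripts came from GENCODE 44, promoters from RefSeq (GRCh38.p14).

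Members, lists and alternatives were chosen with earlier results of these data known. All members were described, with up to 4 called genes of each list in each direction, all regulators, the partners SPG7 and GRPEL1, and overlapping genes. TIMM17A, OMA1, STOML2, DNAJC15 and MOB4 were named outside that rule, after their values were seen.

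Alternatives were other scalings, no count filter, DESeq2, limma-voom, a replicate block, removal of the GC and length trend (lowess, span 0.3) and each library left out. On counts simulated with a dispersion of 0.03 for every gene, the fit recovered 81% of 2-fold and 99% of 4-fold changes. The simulation held no library like EZA replicate 3, so it does not show how the fit behaves with one. Replicates of a group differed by more than counting noise (chi-square per degree of freedom of at least 5.08). It was 113.9 and 126.4 for EZA replicate 3 against replicates 1 and 2, and at most 14.2 for the other pairs. The study calls the replicates biological without naming separate cultures, so the spread behind each p-value may be technical. Versions were 4.3.3 for R, 4.0.16 for edgeR, 3.58.1 for limma, 1.42.0 for DESeq2 and 3.11.15 for Python.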

Additional observations from a re-analysis of the deposited data

How the results depend on the processing

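LONP1 and HSPE1 kept their direction in all 15 alternatives, at 0.41 to 1.11 and -1.14 to -0.49 on the log2 scale, and kept their call in 12 each. Members called, 2 with all libraries, were 1 with the trend removed and the replicate block, 0 to 5 with 1 library left out and 4 without EZA replicate 3 and the trend. The 0 arose without DMSO replicate 1 or 3, where 2 members had an unadjusted p below 0.05. Over all genes, 220 of 13742 and 254 of 13811 were called in those fits. Genes called, 2392 of all tested, were 1581 with the trend removed, 645 with the replicate block as well, 220 to 5289 with 1 library left out and 5328 without EZA replicate 3 and the trend. The 8 called list genes became 4 with trend removal and the block, 2 to 13 with 1 library left out and 19 without EZA replicate 3 and the trend.

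With the trend removed, the log2 fold change was 0.13 for HSPD1, -0.16 for TRAP1, -0.12 for CLPP, 0.11 for CLPX, -0.15 for ATF5, -0.29 for HSF1 and 0.0087 for GRPEL1. With the replicate block as well these were 0.10, -0.16, -0.20, 0.10, -0.15, -0.29 and 0.0060. Without EZA replicate 3 and the trend, TRAP1 was at -0.076, CLPX at 0.037, YME1L1 at 0.022, ATF5 at -0.069, HSF1 at -0.19 (adjusted p = 0.0161) and SPG7 at -0.022. CLPP was at -0.00065 with limma-voom. With 1 library left out, TRAP1 ran from -0.024 to 0.16, CLPP from -0.17 to 0.38 and AFG3L2 from -0.0096 to 0.21. With the trend removed, the log2 ratio differences of CLPX to CLPP, AFG3L2 to SPG7 and TRAP1 to HSPD1 were 0.31, 0.13 and -0.26. The CLPX to CLPP difference ran from -0.56 to 0.18 with 1 library left out. The cause of these reversals was not tested.

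The replicate block alone called 2 members and 1970 of the 13503 genes tested. Deviations of same-numbered libraries correlated at 0.033, -0.17 and 0.027, and those of unlike numbers at -0.13 to 0.17. EZA replicate 3 stood far from the other EZA libraries, so these values cannot tell whether the numbers pair the samples. Paired within numbers, the HSPE1 to HSPD1 ratio differed by -0.75 (exact sign-flip p = 0.25, the smallest 3 pairs allow). With TPM over the longest annotated transcript in place of FPKM, 9 of 20 ranks stayed, and HSPE1 ranked 2 in place of 4 in DMSO. Every member had at least 686 counts in every library.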
